A study of Mus musculus with 22 samples.

Results

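The genes of cholesterol synthesis, regulation and efflux were followed across 6 nervous system cell types of the mouse in ribosome-bound mRNA. The genes were chosen by symbol from a fixed list of pathway members, and all 33 were found among the 55385 genes of the quantified files. Of these, 19 encode synthesis enzymes and the other 14 encode regulators, a cholesterol hydroxylase, transport and storage proteins, efflux pumps and sterol receptors. All 33 passed the filter on low counts in the fit that tested 20524 genes.

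Every mouse carried Rpl22 Fl/+, a conditional allele that adds an HA tag to a ribosomal protein where Cre has acted, together with a Cre driver, and all mice were 6 weeks old. Tagged ribosomes were immunoprecipitated with anti-HA beads, so the libraries held mRNA bound to ribosomes of the Cre-expressing cells. Dentate gyrus granule cells came from hippocampus and layer V cortical neurons from cortex, both with Rbp4-Cre. Cerebellar granule cells came from cerebellum with Gabra6-Cre, and inhibitory interneurons from hippocampus with Dlx6a-Cre, with tissue of 2 mice in each interneuron library. Astrocytes came from cortex with Aldh1-cre, which the study's methods describe as an inducible Aldh1l1-cre/ERT2 transgene, and microglia from cortex with Tmem119-cre, an inducible allele. Per the study's methods, mice of inducible Cre lines were given tamoxifen in corn oil by oral gavage, so both glial groups differed from the neuron groups in this treatment too, and glial type and tamoxifen cannot be told apart. Each cell type had 3 replicates and both sexes were used in each. Layer V neurons, astrocytes and microglia shared the cortex, and dentate granule cells and interneurons the hippocampus. Cerebellar granule cells were the only cerebellar group, so their type and region cannot be told apart.

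Cholesterol does not pass from blood into brain in useful amounts, so brain cells make their own from acetyl-CoA, by way of mevalonate, squalene and lanosterol. The SREBP transcription factors, held in the endoplasmic reticulum by the Insig proteins and escorted out by Scap, switch on most of the synthesis genes when membrane cholesterol is low. Excess cholesterol is hydroxylated by Cyp46a1 in neurons, stored as ester by Soat1, or pumped out by Abca1 and Abcg1 under the control of the liver X receptors (LXR), which are activated by oxysterols.

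The 18 libraries held between 38270477 and 71440915 estimated counts (median 54631726). All interneuron and microglia libraries were labelled batch 2, and the other libraries used were batch 1. The second library of layer V replicate 1, labelled male where the first was labelled female, had 2.13 TPM of Xist and 0.034 TPM of the Y-linked Ddx3y (TPM is transcript abundance scaled by transcript length and library total), which goes against the label; it entered only alternative settings. The markers of the other 5 cell types were each highest on average in their own libraries. Of the 4 layer V markers this held for Fezf2 alone, since Crym was higher in dentate granule cells and Rbp4 and Parm1 in interneurons, and the 4 summed to 357 to 430 TPM in dentate granule cells and 414 to 424 TPM in layer V neurons. The 9 oligodendrocyte markers, among them Mbp, were found in every cell type, although the mean level of Opalin in layer V neurons and cerebellar granule cells and of Ermn in layer V neurons was under 1 TPM. They summed to 2229 to 2351 TPM in interneurons, 874 to 1053 TPM in astrocytes and 472 to 546 TPM in microglia, against 237 to 318 TPM in dentate granule cells, 195 to 205 TPM in layer V neurons and 98.0 to 123 TPM in cerebellar granule cells.

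Astrocytes had the highest mRNA level for most of the synthesis pathway. On the TPM scale, on which levels of different genes can be set side by side, the 19 enzymes summed to 2818 ± 189 TPM in astrocytes (mean ± SD, n = 3). The sums were 882 ± 36.6 TPM in layer V neurons, 817 ± 56.5 TPM in interneurons, 540 ± 28.6 TPM in cerebellar granule cells, 445 ± 45.6 TPM in dentate granule cells and 314 ± 5.06 TPM in microglia (SD, n = 3 each). Astrocytes ranked first for 17 of the 19 enzymes, and for 16 of these all 3 astrocyte libraries lay above the other 15 libraries, where 10.4% of all genes tested did so. Microglia ranked last for 11 of the 19, and for 10 of these their libraries lay below the other 15 (background 15.4%). Since TPM is scaled to the library total, a lower TPM is a smaller share of the mRNA in the library. It can come from fewer of the captured cells expressing the gene or from less of the transcript in each, which cannot be told apart in these bulk samples. The interneuron libraries had the most oligodendrocyte marker mRNA. They ranked second to astrocytes for most enzymes, namely Acat2, Mvk, Pmvk, Sqle, Lss, Cyp51, Tm7sf2, Nsdhl, Hsd17b7, Sc5d and Dhcr7. The part of oligodendrocyte RNA in the enzyme levels of any cell type was not tested.

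**Figure D1:**
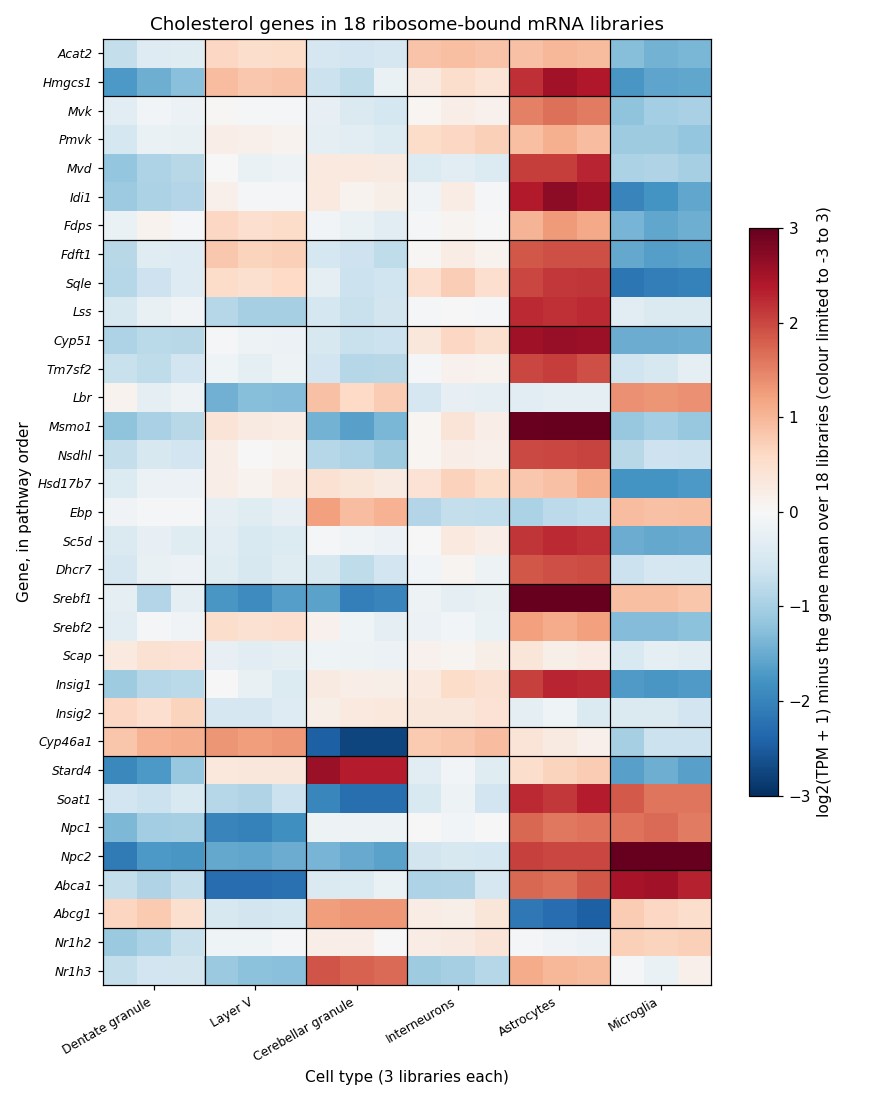
Heat map of the 33 genes (rows, in pathway order) in the 18 libraries (columns, 3 per cell type), coloured by log2(TPM + 1) minus the gene's mean over the libraries. The astrocyte columns are red for most enzymes, the microglia columns are blue for many enzymes and red for Npc2 and Abca1, and the cerebellar columns stand out in Stard4, Nr1h3 and Cyp46a1.

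Over all 33 genes, astrocytes ranked first for 22 and stood apart above the other 15 libraries for 20, while their libraries lay below the rest for 1 gene, Abcg1 (background 7.89%). Microglia stood apart above the rest for 4 genes, Lbr, Npc2, Abca1 and Nr1h2 (background 18.9%), and below the rest for 12. Layer V neurons stood apart above for Cyp46a1 alone (background 5.31%) and below for 5 genes (8.28%), and cerebellar granule cells above for 4 and below for 4 (15.6% and 18.1%). Dentate granule cells stood apart above for Insig2 alone (background 8.53%) and below for 2 genes (1.76%), and interneurons did so for 0 genes in either direction (10.2% and 0.848%).

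The test of these differences set astrocytes against the mean of the 4 neuron types in edgeR's quasi-likelihood fit, with a call at an adjusted p of at most 0.05 over all genes tested. Of the 33 genes, 30 were higher in astrocytes and 3 lower, where 43.0% of all genes tested were higher and 34.1% lower. At least 2-fold differences were called for 25 genes upward and 1 downward (background 28.3% and 13.7%). The median log2 fold change was 2.38 over the 33 genes and 0.14 over all genes tested, and among the 19 enzymes it was 2.54, with 18 higher, 17 of them by 2-fold or more, and 1 lower. Within batch 1, against 3 neuron types, the counts at 2-fold were again 25 and 1. Over all settings other than those with 1 replicate left out, among them the fits within a single batch, the count higher ranged from 27 to 30. The count at least 2-fold higher ranged from 22 to 25. In this contrast the neuron types are averaged on the log scale, so a type with a very low level lowers the neuron mean. The edgeR folds here and below come from normalized counts and not from TPM. They can therefore differ from ratios of the TPM levels printed beside them. Against layer V neurons, from the same tissue, 29 of the 33 genes were higher in astrocytes and 3 lower (background 39.0% and 38.2%), with 21 and 1 at 2-fold (26.3% and 21.3%); the second count was 2 in several other settings, with Cyp46a1 near the threshold.

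The entry steps were led by Hmgcs1, the HMG-CoA synthase that feeds the mevalonate route (ENSMUSG00000093930.2, chromosome 13 from 119690379 to 119708260 of GRCm38). Its level was 631, 797 and 729 TPM in the 3 astrocyte libraries. It was 263, 243 and 249 TPM in layer V neurons, 167, 198 and 184 TPM in interneurons, 87.5, 81.1 and 120 TPM in cerebellar granule cells, 40.7, 49.0 and 56.9 TPM in dentate granule cells and 39.9, 45.2 and 45.6 TPM in microglia. The astrocyte libraries were all above the rest, and the dentate and microglia ranges overlapped at the low end. The log2 fold change of astrocytes over the neuron mean was 2.84 (standard error, SE, 0.09, edgeR adjusted p = 1.8e-15). Acat2, the acetyl-CoA thiolase before it, differed less between cell types. It lay at 71.9 to 77.9 TPM in astrocytes and at 70.1 to 73.0 TPM in interneurons, so these 2 ranges overlapped, and at 13.7 to 15.3 TPM in microglia.

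The mevalonate kinases and the enzymes that build the isoprenoid chain were also highest in astrocytes, while the cell type in second place varied. Idi1, the isopentenyl diphosphate isomerase, was at 155, 192 and 173 TPM in astrocytes, and no library of another cell type was above 35.8 TPM. Microglia had the least, with 6.58, 7.58 and 9.17 TPM. Its log2 fold change was 3.02 against neurons (standard error 0.07) and 4.54 against microglia (standard error 0.12). Mvd, the decarboxylase of the route, was at 80.8 to 94.1 TPM in astrocytes, and cerebellar granule cells ranked second with 22.3 to 23.0 TPM. Mvk and Pmvk, which phosphorylate mevalonate in turn, were 3.98-fold and 2.34-fold higher in astrocytes than in the neuron mean. For Fdps, which makes farnesyl diphosphate, the point where other isoprenoid products branch off, the astrocyte level of 203 ± 17.8 TPM was 2.56-fold above the neuron mean, and layer V neurons followed with 134 ± 5.32 TPM (SD, n = 3).

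The enzymes of squalene synthesis and ring closure had their highest levels in astrocytes as well. Fdft1, the squalene synthase, was at 155, 163 and 164 TPM in astrocytes, 67.9 to 74.2 TPM in layer V neurons and 12.6 to 13.7 TPM in microglia. Sqle, the squalene epoxidase that is a control point of the pathway, was at 108, 118 and 119 TPM in astrocytes, and layer V neurons and interneurons overlapped at 37.1 to 40.3 and 37.8 to 45.0 TPM. In microglia it was at 5.06, 5.49 and 5.66 TPM, a log2 difference of 4.45 from astrocytes (SE 0.12, edgeR adjusted p = 6.2e-16). Lss, which closes the ring to lanosterol, was at 42.5 to 44.5 TPM in astrocytes and at no more than 8.62 TPM in any other library. Most of this Lss signal was assigned to transcripts that are not annotated as protein-coding, whose share is given with the transcripts further on.

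**Figure D2:**
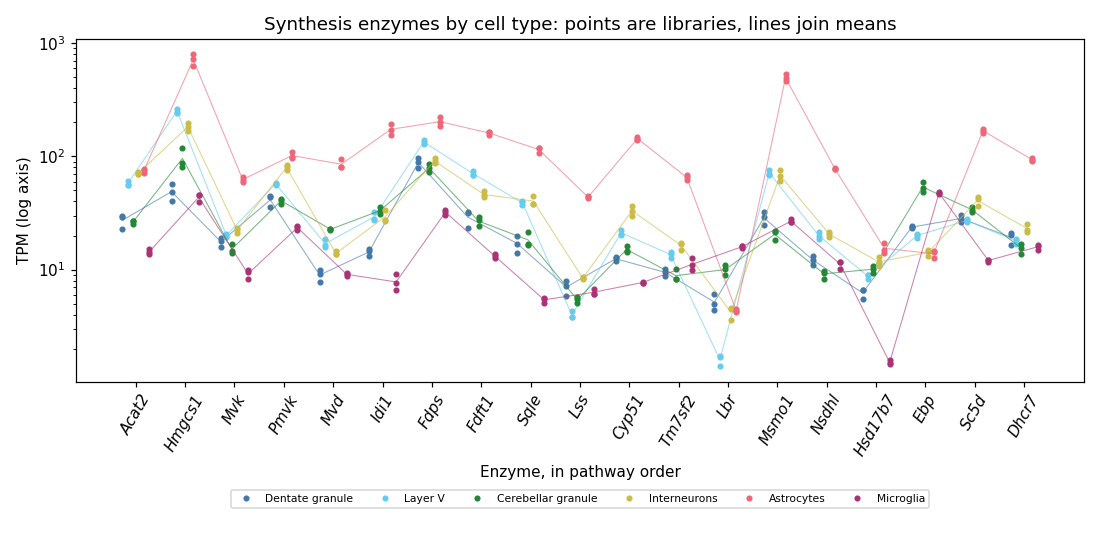
TPM (log axis) of the 19 synthesis enzymes in pathway order, with a point for each library and a line through the means of each cell type. The astrocyte line runs above the others except at Acat2, where it meets the interneurons, and at Lbr and Ebp; the microglia line is lowest at 11 enzymes.

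Among the steps from lanosterol to cholesterol, Msmo1, the sterol methyl oxidase (ENSMUSG00000031604.10, chromosome 8 from 64718139 to 64733792), differed most. It was at 464, 531 and 492 TPM in astrocytes, 76.4, 70.0 and 68.6 TPM in layer V neurons, 61.1, 76.0 and 67.2 TPM in interneurons and 18.2 to 32.1 TPM in both granule cell types. The astrocyte libraries were far above the rest, and microglia, at 26.1 to 28.0 TPM, overlapped dentate granule cells. The fold over the neuron mean was 15.1 (3.91 on the log2 scale, SE 0.06, edgeR adjusted p = 6.1e-20). Cyp51, the lanosterol demethylase, was at 140 to 148 TPM in astrocytes and at most 36.6 TPM elsewhere, a log2 fold change of 3.19 over neurons (standard error 0.05). Sc5d, the desaturase near the end of the route, was at 163 to 175 TPM in astrocytes against 26.1 to 44.2 TPM in the 12 neuron libraries and 11.8 to 12.2 TPM in microglia. Tm7sf2, the sterol reductase that removes a ring double bond, was at 61.7 to 68.4 TPM in astrocytes and at most 17.0 TPM elsewhere (log2 fold change over neurons 2.95, SE 0.07). Dhcr7, the last reductase of its branch, was 6.01-fold higher in astrocytes than in neurons, and Nsdhl, the sterol dehydrogenase, 6.46-fold. Hsd17b7, a ketosteroid reductase, was 2.08-fold above the neuron mean, and its lowest level, 1.47 to 1.59 TPM, was in microglia.

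The 2 exceptions among the enzymes were Ebp and Lbr. Ebp, the sterol isomerase, was at 12.5, 14.2 and 14.7 TPM in astrocytes and 13.2, 14.8 and 14.6 TPM in interneurons, the lowest levels of the 6 types and overlapping each other. It was at 59.6, 48.5 and 52.9 TPM in cerebellar granule cells and 48.1, 46.8 and 47.5 TPM in microglia. The log2 fold change against the neuron mean was -0.66 in astrocytes (standard error 0.05) and 1.05 in microglia (standard error 0.05), so the 2 glial types lay on opposite sides of neurons. Lbr, a sterol reductase that is also a receptor of the nuclear lamina, was highest in microglia, at 15.6 to 16.1 TPM, and lowest in layer V neurons, at 1.41 to 1.71 TPM. Astrocytes, at 4.20 to 4.48 TPM, overlapped dentate granule cells and interneurons in Lbr, and their call of 0.30 above the neuron mean (log2, standard error 0.07) turned to -0.0384 when the same contrast was fitted on log2(TPM + 1).

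Sequences upstream of the gene starts are shown for 5 enzymes, because most enzymes moved together in astrocytes and Ebp and Acat2 did not share that pattern in full. Lbr did not share it either and is not printed. RefSeq promoter windows of GRCm38.p6, from 250 bases before to 50 bases after the start, existed for 27 of the 33 genes. In these windows TCACNCCAC, letters of a sterol regulatory element, and the repeat bound by LXR were each searched in a single form. Any base was allowed at the N of the first and in the gap of the second. Variant forms of either were not searched, so absence below holds for these forms only. The CCAAT box, the binding letters of NF-Y, searched on both strands, was found in 22 of these 27 (81.5%) and in 15 of 16 enzymes with a window (93.8%), the exception being Acat2, where 41.1% of all genes with a window held it. TCACNCCAC was found only for Hmgcs1 among the 27 (3.7%), where 1.44% of all genes with a window held it. The repeat element bound by LXR with its partner RXR was in none of the 27 and in 0.0148% of all genes with a window. Each sequence is printed from 5′ to 3′ on the gene's strand and leaves out annotated exon bases of its gene; capitals mark CCAAT or its reverse complement ATTGG and, in Hmgcs1, the sterol regulatory letters.
Hmgcs1 (chr13:119690201-119690350, plus strand): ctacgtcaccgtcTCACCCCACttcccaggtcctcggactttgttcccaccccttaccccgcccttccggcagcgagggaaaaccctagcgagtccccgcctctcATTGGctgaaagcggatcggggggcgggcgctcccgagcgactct
Mvd (chr8:122443423-122443572, minus strand): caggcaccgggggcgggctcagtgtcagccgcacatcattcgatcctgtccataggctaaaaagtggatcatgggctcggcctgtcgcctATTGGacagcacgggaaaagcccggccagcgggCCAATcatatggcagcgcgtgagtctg
Sc5d (chr9:42264301-42264450, minus strand): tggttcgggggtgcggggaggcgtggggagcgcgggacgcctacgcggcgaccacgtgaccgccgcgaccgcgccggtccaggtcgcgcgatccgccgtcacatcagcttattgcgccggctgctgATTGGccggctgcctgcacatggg
Ebp (chrX:8193513-8193662, minus strand): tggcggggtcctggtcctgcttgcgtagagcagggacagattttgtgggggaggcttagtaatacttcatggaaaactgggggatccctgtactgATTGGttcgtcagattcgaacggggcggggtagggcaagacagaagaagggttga
Acat2 (chr17:12960748-12960897, minus strand): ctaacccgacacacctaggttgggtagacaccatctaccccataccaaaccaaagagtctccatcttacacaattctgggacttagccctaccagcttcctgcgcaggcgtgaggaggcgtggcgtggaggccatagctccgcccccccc

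Hmgcs1 thus carried both kinds of letters, Mvd had the box on both strands, and Ebp, lowest in astrocytes, carried the box as did Sc5d, which was highest there. Lbr, not printed and not highest in astrocytes, carried the box 2 times. Acat2, without the box, had its highest mean level in astrocytes, where its range overlapped that of interneurons. These matches are letters in a window and not measured binding.

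Microglia had less mRNA than neurons for most enzymes. Against the mean of the 4 neuron types, 11 of the 33 genes were higher in microglia and 20 lower, where 45.1% of all genes tested were higher and 37.2% lower, and at 2-fold the counts were 8 and 13 (background 31.7% and 21.4%). The median log2 fold change was -0.51 over the 33 genes and 0.15 over all genes tested. Among the 19 enzymes 3 were higher (Tm7sf2, Lbr and Ebp) and 14 lower, 10 of them by 2-fold or more, with a median of -1.01. The Tm7sf2 difference was small (log2 fold change 0.22) and turned to -0.068 in the fit on log2(TPM + 1). Of the 14 other genes 8 were higher and 6 lower, 6 and 3 of them by 2-fold or more. Hsd17b7 and Sqle had the lowest log2 fold changes, -2.45 and -2.07 (standard errors 0.09 and 0.10). Directly against microglia, 27 genes were higher in astrocytes and 6 lower (background 39.8% and 36.3%), 24 and 4 of them by 2-fold or more (23.1% and 21.1%); the 6 were Lbr, Ebp, Npc2, Abca1, Abcg1 and Nr1h2. Within batch 2, which held single libraries of the other types except interneurons, the microglia counts against neurons at 2-fold were 7 and 13. The microglia libraries also held 296 to 444 TPM of 5 endothelial markers and 216 to 307 TPM of 4 mural cell markers, against at most 68.5 and 106 TPM in the other types, and the part of these cells in the microglia levels was not tested.

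**Figure D3:**
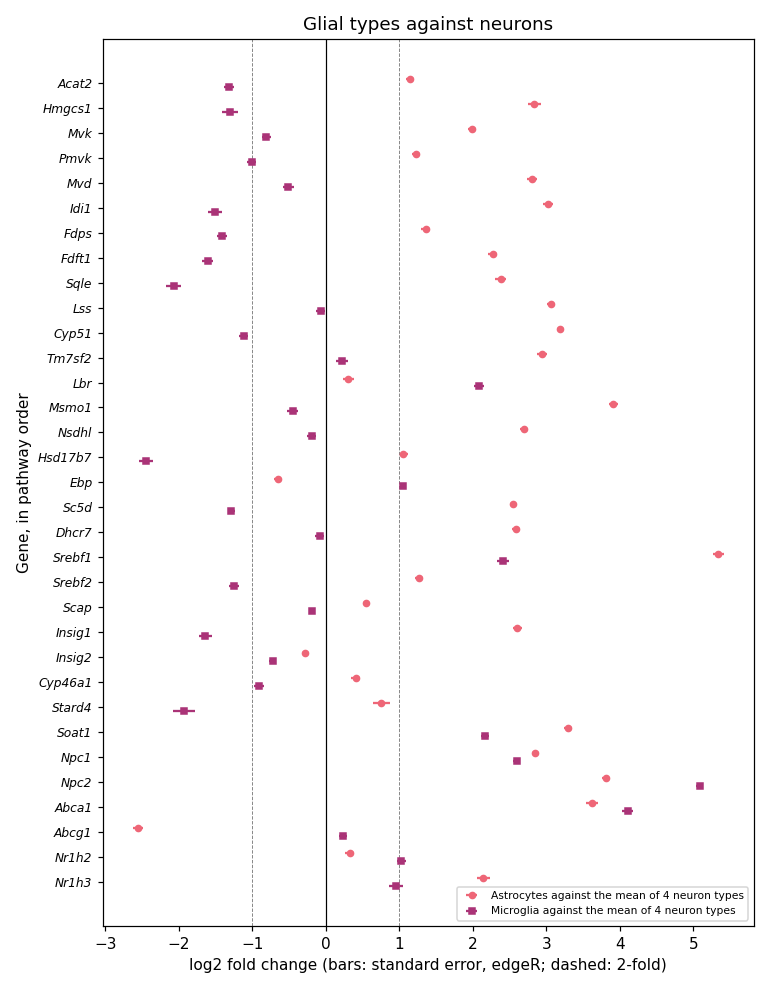
Log2 fold change (horizontal axis, with standard error bars from edgeR) of the 33 genes in astrocytes and in microglia against the mean of the 4 neuron types, with dashed lines at 2-fold. Astrocyte points lie right of 0 for 30 genes; microglia points lie left of 0 for most enzymes and right of 0 for Srebf1, Soat1, Npc1, Npc2 and Abca1.

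Neuron types differed from each other in synthesis as well, and each was set against the mean of the other 3. In layer V neurons 20 of the 33 genes were higher and 10 lower (background 35.9% and 31.7%), with 4 at 2-fold in each direction (17.3% and 9.21%). Among the enzymes 15 were higher and 3 lower, and the log2 fold changes of Sc5d (not called), Dhcr7 and Hsd17b7 turned from above 0 to -0.31, -0.0784 and -0.0479 in the fit on log2(TPM + 1). Hmgcs1 (log2 fold change 1.68, standard error 0.10), Fdft1 (1.32, standard error 0.07) and Msmo1 (1.32, standard error 0.07) passed 2-fold. The 2-fold count upward rose to 8 when interneurons were left out of the mean or when batch 1 was fitted alone. In dentate granule cells 8 genes were higher and 22 lower (36.5% and 27.6%), with 1 and 6 at 2-fold (17.0% and 8.59%), and of the enzymes 16 were lower and 1, Lbr, higher; Lss, at -0.11 and not called, was at 0.25 in the fit on log2(TPM + 1) and at 0.77 with protein-coding transcripts. Hmgcs1 was lower by -1.80 on the log2 scale (standard error 0.12), and Idi1 by -1.17 (standard error 0.10). The dentate count upward at 2-fold was 3 without interneurons in the mean and in batch 1 alone. Interneurons had 21 higher and 8 lower (36.0% and 28.4%), with 2 at 2-fold in each direction (18% and 6.64%), or 5 and 1 in the fit on log2(TPM + 1); Cyp51 was 1.85-fold and Acat2 1.84-fold above the other neurons. These were the libraries with the highest oligodendrocyte marker levels, whose part was not tested.

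The SREBP control genes separated astrocytes from the rest through Srebf1 and Insig1. Srebf1, which encodes the SREBP form best known for fatty acid genes (ENSMUSG00000020538.15, chromosome 11 from 60199089 to 60222581), was at 130, 107 and 118 TPM in astrocytes. It was at 19.1, 19.3 and 18.2 TPM in microglia, 7.76, 4.80 and 7.88 TPM in dentate granule cells, 8.60, 7.84 and 8.25 TPM in interneurons, 2.18, 1.90 and 2.45 TPM in layer V neurons and 2.53, 1.58 and 1.74 TPM in cerebellar granule cells. Both glial types were above every neuron library, and layer V neurons and cerebellar granule cells overlapped at the bottom. The fold over the neuron mean was 40.5 in astrocytes (5.34 on the log2 scale, SE 0.08, adjusted p = 3.2e-20) and 5.33 in microglia (2.41 on the log2 scale, SE 0.08, adjusted p = 4.2e-15), both from edgeR. Srebf1 shares exon bases with Rai1 on the other strand and with a microRNA gene, so reads there could be shared.

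Srebf2, the SREBP form best known for cholesterol genes, had a narrower range. It was at 172, 159 and 174 TPM in astrocytes, 101 to 105 TPM in layer V neurons and 29.0 to 30.7 TPM in microglia, and the other 3 neuron types overlapped between 58.6 and 80.1 TPM. It was thus higher in astrocytes than in the neuron mean by 1.26 and lower in microglia by -1.25 on the log2 scale (standard errors 0.06 and 0.07). Insig1, itself a target of SREBP and a brake on it, was at 185, 218 and 212 TPM in astrocytes and 12.9, 12.5 and 12.8 TPM in microglia, with neurons between 20.5 and 65.4 TPM. No 2 neighbouring cell types overlapped in the order of Insig1. Insig2, the other brake, was highest in dentate granule cells, at 55.2 to 61.9 TPM. Layer V neurons, at 26.8 to 29.1 TPM, overlapped both astrocytes, at 28.2 to 35.0 TPM, and microglia, at 25.7 to 28.2 TPM. Scap, the escort, varied least of the 33 genes, from 29.5 ± 2.09 TPM in microglia to 50.0 ± 3.08 TPM in dentate granule cells (SD, n = 3).

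Cyp46a1, which hydroxylates cholesterol so that it can leave the brain (ENSMUSG00000021259.5, chromosome 12 from 108334381 to 108362234), was highest in the 3 forebrain neuron types. It was at 200, 190 and 199 TPM in layer V neurons, 144, 166 and 170 TPM in dentate granule cells and 139, 142 and 153 TPM in interneurons. Astrocytes had 105, 96.5 and 88.6 TPM, microglia 39.7, 50.9 and 50.7 TPM and cerebellar granule cells 13.7, 10.99 and 10.9 TPM. Layer V neurons were above all other libraries, cerebellar granule cells below all, and dentate granule cells and interneurons overlapped. Cerebellar granule cells were 13.8-fold below the other 3 neuron types (-3.78 on the log2 scale, SE 0.08, edgeR adjusted p = 2.3e-17). With that low value in the log-scale neuron mean, the contrast of astrocytes with neurons came out at 0.41 (standard error 0.06; 0.16 and not called in the fit on log2(TPM + 1)), although every astrocyte library lay below every library of the other 3 neuron types; against layer V neurons it was -0.96 (standard error 0.08). The 4 layer V markers summed to 72.3 to 89.7 TPM in astrocytes and 23.3 to 24.4 TPM in microglia, and Fezf2, which defines layer V output neurons, was at 18.7 to 23.7 TPM in astrocytes against 84.6 to 86.6 TPM in layer V neurons. The part of neuronal RNA in the glial Cyp46a1 levels was not tested.

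Genes of lysosomal export and storage were higher in both glial types than in neurons. Npc2, the lysosomal protein that hands cholesterol to Npc1 (ENSMUSG00000021242.9, chromosome 12 from 84754562 to 84773152), was at 290, 294 and 282 TPM in microglia and 115, 112 and 112 TPM in astrocytes. In neurons it reached 18.2 to 19.3 TPM in interneurons and stayed between 5.50 and 9.64 TPM in the other 9 libraries. The fold over the neuron mean was 34.0 in microglia (5.09 on the log2 scale, SE 0.05, adjusted p = 1e-22) and 14.0 in astrocytes (3.81 on the log2 scale, SE 0.05, adjusted p = 7.6e-21), both from edgeR. Npc1, the membrane partner, did not separate the 2 glial types by the range of its gene sum: it was at 96.2, 88.5 and 90.1 TPM in astrocytes and 90.9, 96.0 and 85.8 TPM in microglia. Their fitted log2 difference of 0.25 (standard error 0.06) fell to 0.01 in the fit on log2(TPM + 1) and was then not called. In neurons Npc1 was at 6.25 to 7.33 TPM in layer V neurons, the lowest, and at 25.5 to 28.5 TPM in cerebellar granule cells and interneurons. Soat1, which esterifies cholesterol for storage, was at 43.4 ± 3.43 TPM in astrocytes (SD, n = 3), 32.8, 27.8 and 27.5 TPM in microglia and 0.960 to 7.41 TPM in neurons, with the cerebellar libraries lowest.

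The efflux pumps split the glial types. Abca1, which loads cholesterol onto apolipoproteins (ENSMUSG00000015243.4, chromosome 4 from 53030787 to 53159895), was at 34.9, 36.1 and 31.0 TPM in microglia and 20.3, 19.1 and 22.4 TPM in astrocytes. It was at 0.316, 0.326 and 0.361 TPM in layer V neurons and between 2.39 and 4.62 TPM in the other 9 neuron libraries. Both glial types were above every neuron library, and the log2 fold changes over the neuron mean were 4.11 in microglia and 3.62 in astrocytes (standard error 0.08 each). Abcg1, which exports cholesterol to lipoprotein particles, was lowest in astrocytes, at 5.46, 4.87 and 4.28 TPM. It was at 66.8, 69.5 and 69.2 TPM in cerebellar granule cells, 40.2 to 47.7 TPM in microglia and 39.0 to 48.2 TPM in dentate granule cells. This was the only one of the 33 genes that was at least 2-fold lower in astrocytes than in the neuron mean (-2.56 on the log2 scale, SE 0.07, edgeR adjusted p = 2.6e-16).

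The LXR receptors differed in spread. Nr1h2, LXR beta, was found in every cell type, from 18.3 to 25.7 TPM in dentate granule cells to 65.7 to 68.4 TPM in microglia. Nr1h3, LXR alpha, was at 15.3, 14.1 and 13.4 TPM in cerebellar granule cells, 8.56, 7.83 and 7.53 TPM in astrocytes and 3.34, 2.82 and 3.90 TPM in microglia. The remaining neuron libraries lay between 0.860 and 2.04 TPM, and no 2 neighbouring cell types overlapped in the order. Nr1h3 shares exon bases with the gene Gm13783 on its own strand.

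The share of a pair's summed TPM showed which of 2 related genes led in each library. Tm7sf2, the sterol reductase that acts at the same step as Lbr, held 93.8% ± 0.284 of the pair in astrocytes and 89.4% ± 1.44 in layer V neurons. It held 46.9% ± 1.60 in cerebellar granule cells and 41.1% ± 3.00 in microglia (SD, n = 3). Tm7sf2 shares exon bases with Vps51 on its own strand, and Lbr with Gm26004 on its own and Dnah14 on the other. Reads there could be shared. Protein-coding transcripts held from 66.5% of the Tm7sf2 TPM in dentate granule cells to 93.7% in astrocytes. Insig1 held 86.6% ± 1.48 of the Insig pair in astrocytes, 52.4% to 57.8% on average in layer V neurons, interneurons and cerebellar granule cells, 31.7% ± 1.34 in microglia and 28.2% ± 2.29 in dentate granule cells. Srebf1 held 41.3% ± 1.5 of the Srebf pair in astrocytes and 39.0% ± 1.47 in microglia, with ranges of 40.3% to 43.0% and 37.3% to 39.9% that did not overlap, against at most 11.8% in any neuron library. Abca1 held 80.8% ± 2.76 of the pump pair in astrocytes, 43.8% ± 1.65 in microglia and at most 8.99% in any neuron library. Npc1 held 74.2% ± 1.54 of the Npc pair in cerebellar granule cells and 23.9% ± 0.638 in microglia. Nr1h2 led Nr1h3 in all 18 libraries, by the least in cerebellar granule cells with 76.1% ± 0.855. These shares are descriptions with no test.

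**Figure D4:**
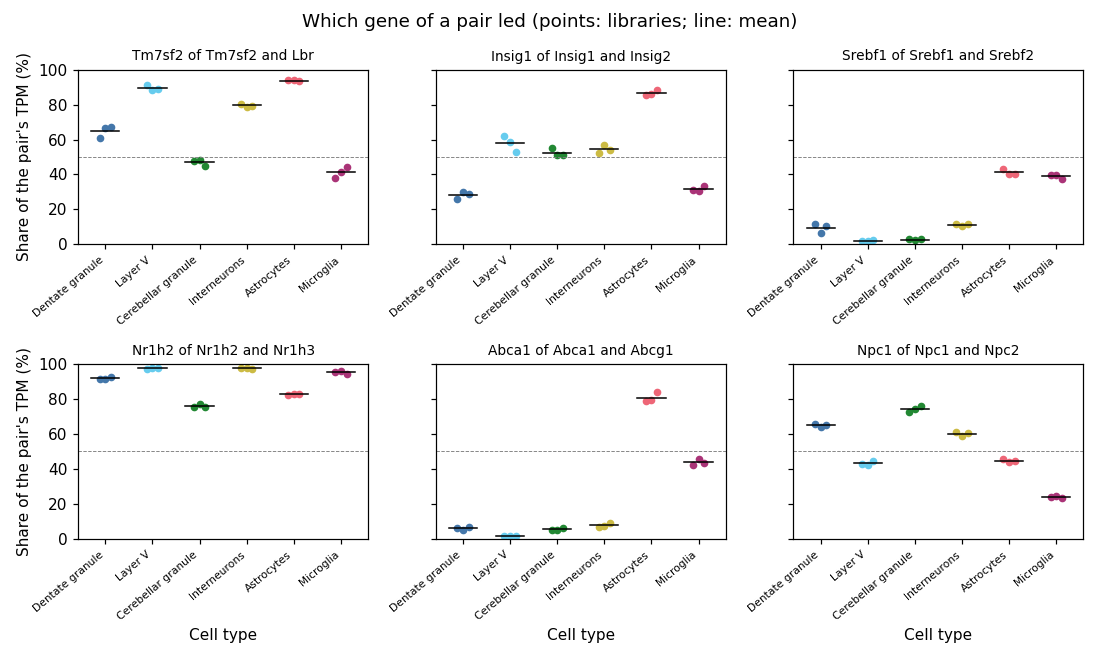
Share (%) of a pair's summed TPM held by the first-named gene in each library (points) and its mean (line) for 6 gene pairs and 6 cell types, with a dashed line at equal shares. Tm7sf2, Insig1 and Abca1 have their highest shares in astrocytes, and Abca1 stays at or under 8.99% in every neuron library.

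Cerebellar granule cells stood apart for a few of the 33 genes, in shares below those over all genes tested. Against the other 3 neuron types, 12 of the 33 genes were higher and 18 lower (background 34.9% and 43.0%), and at 2-fold the counts were 7 and 4 (14.5% and 29.1%). The 7 were Stard4, Nr1h3, Abca1, Lbr, Ebp, Abcg1 and Npc1, and the 4 were Cyp46a1, Soat1, Srebf1 and Msmo1. In the fit on log2(TPM + 1) the counts were 5 and 4, and Npc1, which was higher in interneurons than in cerebellar granule cells, fell to 0.88. The very low layer V levels of Npc1 and Abca1 enter the log-scale mean behind both calls. The median log2 fold change was -0.18 over the 33 genes and -0.21 over all genes tested. Of the 7, Ebp, Stard4, Abcg1 and Nr1h3 were the 4 genes of 33 that stood apart above all other libraries, where 15.6% of all genes tested did so. Stard4, which carries cholesterol between membranes, was at 73.0, 61.8 and 61.1 TPM there, against 14.3 to 14.5 TPM in layer V neurons, 16.6 to 19.8 TPM in astrocytes and 2.19 to 4.56 TPM in dentate granule cells and microglia together. Its log2 fold change over the other neurons was 3.07 (SE 0.11, edgeR adjusted p = 4.3e-14), and that of Nr1h3 was 3.77 (SE 0.09, edgeR adjusted p = 1.3e-16). Soat1, at 1.41, 0.967 and 0.960 TPM, was 5.00-fold lower. Microglial markers summed to no more than 10.9 TPM and astrocyte markers to no more than 18.2 TPM in the cerebellar libraries, the lowest of the 6 types.

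**Figure D5:**
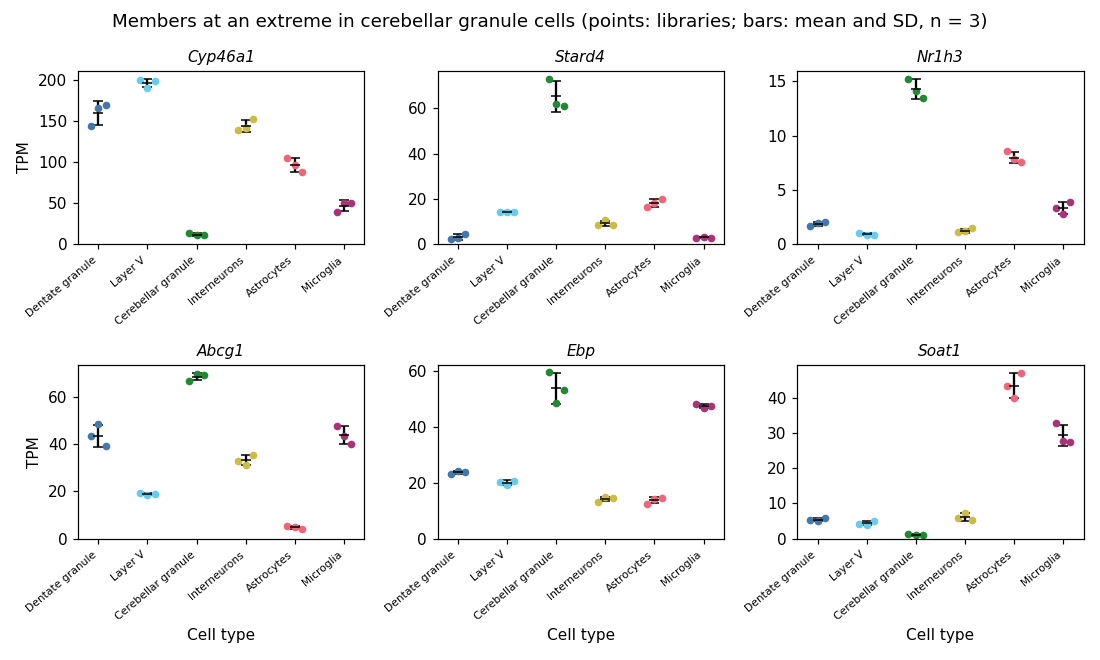
TPM in each library (points) with mean and SD (bars, n = 3) of 6 genes at an extreme in cerebellar granule cells. Cyp46a1 and Soat1 are lowest there, and Stard4, Nr1h3, Abcg1 and Ebp are highest.

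A further list of 38 sterol genes, covering the prenyl branch, SREBP processing, oxysterol enzymes, transport, uptake and LXR partners, went in both directions in the glial types. Against neurons 20 were higher and 14 lower, 11 and 4 by 2-fold or more (background 43.0% and 34.1%, and 28.3% and 13.7%), with a median log2 fold change of 0.23. In microglia 23 were higher and 14 lower, 13 and 7 by 2-fold or more (background 45.1% and 37.2%, and 31.7% and 21.4%), with a median of 0.53. The largest value in astrocytes was that of Lcat, the enzyme that esterifies cholesterol on lipoproteins, at 293, 264 and 273 TPM against 0.664 to 2.77 TPM in neurons (log2 fold change 8.06, standard error 0.10). Cyp7b1, an oxysterol hydroxylase, had a log2 fold change of 3.27 in astrocytes, at 35.7 to 36.5 TPM, but dentate granule cells had more, 47.2 to 48.7 TPM, and the neuron mean was lowered by cerebellar granule cells at 0.268 to 0.288 TPM. Rxrg, an LXR partner, was listed at 0 in the 3 cerebellar libraries, so no fold is given; it was at 5.66 to 6.95 TPM in astrocytes and 10.1 to 10.8 TPM in layer V neurons. In microglia Cyp27a1, a sterol hydroxylase, was at 21.6, 20.9 and 21.0 TPM against 0.172 to 2.28 TPM in neurons (log2 fold change 5.49, standard error 0.16). Mylip, a ligase that targets lipoprotein receptors for breakdown, was at 154, 134 and 118 TPM in microglia against 2.20 to 11.8 TPM in neurons. Soat2, the second esterifying enzyme, was at 0.272 to 0.352 TPM in microglia and at 0 to 0.069 TPM in the other libraries, too low for a fold.

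Transcript assignment qualified several gene sums. For 17 of the 33 genes more than 90% of the TPM in every cell type was on transcripts annotated as protein-coding. Lss was the only gene under 50% in every type, with 11.3% in layer V neurons and 35.9% in astrocytes, and its retained-intron transcript Lss-204 alone held between 31.6% in microglia and 75.4% in layer V neurons on average. Npc1 was under 75% in every type, and its retained-intron transcript Npc1-206 held 41.5% in astrocytes and 54.9% in microglia. The protein-coding Npc1-201 was at 53.4 TPM in astrocytes and 40.8 TPM in microglia on average. Soat1 differed by isoform: Soat1-207 held 80.1% to 96.3% on average in the neuron types, but 45.9% in astrocytes and 23.5% in microglia, where Soat1-201 held 34.8% and 50.1%. For Srebf1, the transcript Srebf1-201 led in neurons and microglia with 49.2% to 70.0% on average, while in astrocytes Srebf1-201, Srebf1-207 and Srebf1-203 held 34.4%, 32.5% and 30.2%. These shares rest on how kallisto divided reads among overlapping transcripts and are descriptions.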

How the data were processed

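RiboTag mRNA libraries of 6 cell types (3 replicates each, 22 libraries in all) were analysed. The authors used cutadapt 3.5 for adapter removal and kallisto 0.46.2 for transcript quantification against GENCODE M24 transcripts of GRCm38; whether strand was used is not given in the sources used here. They deposited estimated counts, which are not normalized, and TPM, which is scaled by transcript length and library total. Their own test, sleuth, was not run.

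Transcript values were summed by gene identifier. Where a replicate had a library in both batches, only that of batch 1 was used. Estimated counts were rounded and fitted together for the 18 libraries with edgeR 4.0.16 (TMM, filterByExpr, quasi-likelihood F-test, Benjamini-Hochberg over 20524 genes), in R 4.3.3. TPM described levels, and ranges that did not overlap were counted without a test. DESeq2 1.42.0 and limma 3.58.1 (log2(TPM + 1)) were alternatives, with other filters, transcript sets, batches, the replicate number as a block and each replicate left out. Python 3.11.15, numpy 2.4.6 and pandas 2.3.3 were used otherwise. On data simulated for astrocytes against neurons over 19358 genes, 90 of 94 genes changed 2-fold and 94 of 94 changed 4-fold were recovered, and 5 unchanged genes were called. At each fold 100 genes had been drawn, and 94 were among those tested. The simulation gave each gene the same mean in all cell types and a fixed dispersion, and changed only the drawn genes. In the real libraries far more genes differed, so these counts do not give the error rate there. The study's methods call the replicates biological, so p-values measure the spread between mice or pools.

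Coordinates are those of GENCODE M21 (GRCm38), which held 32 of the 33 genes under the same versioned identifier; 12 of the 33 share exon bases with another gene. Of the 33 genes all are covered; of the further sterol genes, the 3 with the largest called log2 fold change in astrocytes and in microglia were named. The members, lists and comparisons were chosen with earlier results of these data known. An item of the marker lists is not reported here and was left out of the sums.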

Additional observations from a re-analysis of the deposited data

How the results depend on the processing

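Estimated counts fell to 38270477 in the shallowest library, which was of dentate granule cells. The depth of each library limits its levels near 0 TPM, such as those of Soat2. Among the 33 genes such levels were those of Abca1 and Nr1h3 in layer V neurons and Soat1 in cerebellar granule cells. The shallowest libraries of these 2 types held 53999691 and 48481047 estimated counts. Of 2706 gene results under other settings, 75 were no longer called, 27 became called and 14 changed sign. A change of sign was counted only where either fit made a call. The remaining 2590 kept direction and call, or were called in neither fit. Of 4752 with 1 replicate left out, 88 were no longer called, 30 became called and 0 changed sign by this count. The other 4634 were unchanged in the same sense. The cause of each change below was not tested, except that leaving interneurons out of the mean, chosen after seeing the data, changes the types compared. The count at least 2-fold lower in astrocytes than in layer V neurons was 2 in place of 1, with Cyp46a1 near the threshold, in limma on log2(TPM + 1), with protein-coding transcripts only, with the batch 2 libraries, in 22 libraries with batch as a term and within batch 2, and it ranged from 1 to 2 with 1 replicate left out. The dentate count 2-fold higher was 3 within batch 1 and without interneurons, and the layer V count was 8 in both. In limma, interneurons had 5 genes 2-fold higher, 1 gene 2-fold lower and 5 lower. With a call in either fit, the following log2 fold changes changed sign in limma. Against neurons they were those of Lbr in astrocytes (-0.0384) and Tm7sf2 in microglia (-0.068). Between neuron types they were Lss in dentate granule cells (0.25) and Scap in interneurons (0.15). In layer V neurons they were Dhcr7 (-0.0784), Hsd17b7 (-0.0479) and Sc5d (-0.31). With protein-coding transcripts Lss in dentate granule cells was 0.77. Within batch 1 and without interneurons, Lss in cerebellar granule cells was 0.0872 and 0.0327, Npc2 there 0.26 and 0.21, and Npc2 in layer V neurons 0.40 and 0.40. Using batch 2 libraries moved a mean TPM by at most 16.3% (Nr1h3 in layer V neurons). With protein-coding transcripts 24 of 36 pair shares moved by more than 1 SD and 1 crossed 50%, that of Npc1 in interneurons.

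The replicate number was also fitted as a block. Same-numbered libraries correlated between -0.0999 and 0.1087 (median 0.0391) in their deviations from the group means and differently numbered ones between -0.1161 and 0.1321 (median -0.0202). Since not every same-numbered pair correlated clearly above 0, the numbers were not taken to pair the libraries, although 12 of 18 libraries correlated best with their own number, which is a hint from the data and not from the design. With the block, 25 genes were at least 2-fold higher in astrocytes than in neurons, as without it, and 1 of 264 gene results was no longer called.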
